A study of Saccharomyces cerevisiae with 6 samples.

Results

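The 10 genes described here encode the cytosolic Hsp70 chaperones of budding yeast and the partners that work with them at the ribosome: SSA1, SSA2, SSA3, SSA4, SSB1, SSB2, SSE1, SSE2, SSZ1 and ZUO1. They were taken by systematic name from a table of 7126 features, and all 10 were found. RNA was measured in 3 libraries of the mms21RINGD mutant and 3 libraries of wild type (WT). The mutant is altered in MMS21, which encodes a SUMO ligase, and the series ties that enzyme to the making of ribosomes. The labels put WT in the W303 strain background and give only the allele name as the strain of the mutant, and they name no other allele in either group. Cells of both groups were taken in exponential growth in supplemented rich medium, no treatment being named, and total RNA was depleted of ribosomal RNA before sequencing. Whether the replicates are separate cultures or colonies is not in the labels, and the p-values cover only the spread among these 6 libraries.

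Hsp70 chaperones bind exposed hydrophobic stretches of other proteins and release them in a cycle of ATP binding and hydrolysis, which J-proteins start and nucleotide exchange factors reset. In the yeast cytosol the SSA proteins form the general pool, with SSA1 and SSA2 made in growing cells and SSA3 and SSA4 known as stress-inducible forms. SSB1 and SSB2 sit on translating ribosomes and bind nascent chains, helped by SSZ1 (an Hsp70 relative) and ZUO1 (a J-protein), which together form the ribosome-associated complex. SSE1 and SSE2 belong to the Hsp110 branch and act as exchange factors for the others. The heat shock factor Hsf1 and the stress activators Msn2 and Msn4 are the known activators of stress-induced members, through the heat shock element and the stress response element in the DNA before the gene.

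Sequences before the start codon are shown for 7 members because members of 1 family carried different elements there. They were read from the R64 genome of RefSeq, which has the coordinates of sacCer3, on the coding strand. Capitals mark, in SSA4 and SSE2, the stress response element (AGGGG, or CCCCT on the other strand) and the shorter heat shock element (TTCNNGAA or GAANNTTC). In SSA1 they mark the stress response element and the longer heat shock element, which is the shorter one followed after NN by one more unit (TTC after TTCNNGAA, GAA after GAANNTTC), and in SSA2 and SSE1 the longer heat shock element. In SSB1 and SSB2 they mark 2 elements known from ribosome biogenesis genes, RRPE (AAAATTTT) and PAC (GATGAG, or CTCATC on the other strand).
SSA4 (chrV:364119-364418, plus strand): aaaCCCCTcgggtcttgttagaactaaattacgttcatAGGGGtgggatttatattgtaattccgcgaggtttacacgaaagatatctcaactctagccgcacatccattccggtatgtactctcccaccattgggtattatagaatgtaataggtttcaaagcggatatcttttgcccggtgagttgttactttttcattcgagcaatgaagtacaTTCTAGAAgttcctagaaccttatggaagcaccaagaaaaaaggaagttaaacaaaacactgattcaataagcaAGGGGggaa
SSA1 (chrI:141582-141801, minus strand): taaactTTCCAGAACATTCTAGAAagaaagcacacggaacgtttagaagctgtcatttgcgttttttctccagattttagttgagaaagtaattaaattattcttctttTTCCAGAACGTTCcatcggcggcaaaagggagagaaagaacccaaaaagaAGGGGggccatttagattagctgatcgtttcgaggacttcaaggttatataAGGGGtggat
SSA2 (chrXII:97686-97735, minus strand): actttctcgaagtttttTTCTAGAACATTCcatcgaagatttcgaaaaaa
SSE2 (chrII:576197-576246, minus strand): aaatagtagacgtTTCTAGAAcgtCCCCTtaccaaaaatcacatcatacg
SSE1 (chrXVI:352426-352475, minus strand): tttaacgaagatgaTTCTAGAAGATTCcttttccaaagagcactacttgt
SSB1 (chrIV:43885-43964, plus strand): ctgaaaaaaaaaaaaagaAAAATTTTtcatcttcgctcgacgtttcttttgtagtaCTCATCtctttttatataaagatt
SSB2 (chrXIV:251879-251958, plus strand): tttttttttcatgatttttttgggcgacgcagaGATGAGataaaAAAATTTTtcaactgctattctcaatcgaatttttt

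All motifs were searched on both strands in the 500 bases before each start codon, and the longer heat shock element contains the shorter one. The longer heat shock element was present in 89 of 6000 such windows of protein-coding genes (1.48%), and among the members in those of SSA1 (3 matches, of which 2 overlap), SSA2 and SSE1. The stress response element was present in 34.1% of all windows, and among the members in those of SSA4 (3 matches), SSA1 (2 matches) and SSE2 (1 match). RRPE was present in 12.4% of all windows, and among the members in those of SSB1 and SSB2. PAC was present in 28.3% of all windows and in those of 7 members, SSA3, SSB1, SSB2, SSE1, SSE2, SSZ1 and ZUO1. A binding site of Rap1, searched as ACCCATACA, was present in 1.12% of all windows and in none of the members' windows. The shorter heat shock element was present in 35.2% of all windows and in those of SSA1, SSA2, SSA4, SSB2, SSE1 and SSE2. SSA3, SSZ1 and ZUO1, whose sequences are not shown, held PAC alone among these motifs. The stress-inducible SSA3 thus had no match to the stress response element or to either heat shock element. These are matches of letters and not measured sites.

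The libraries held 19264738 to 24034030 reads in mms21RINGD and 20887808 to 24625301 reads in WT. WT replicate 1 stood apart from the other WT libraries. Its median absolute difference from replicates 2 and 3 was 0.21 and 0.23 on the log2(RPKM + 1) scale, against 0.08 between replicates 2 and 3 and 0.06 to 0.07 between mutant libraries. In 8 of the 10 members it lay on the mutant's side of the mean of the other WT libraries, SSA2 and ZUO1 being the exceptions, so the main results are given with and without it. The mutated gene, MMS21, measured 16.6, 12.9 and 13.5 RPKM (reads of a gene scaled to its length and to the depth of the library) in mms21RINGD, against 3.23, 3.04 and 2.18 RPKM in WT. A level per gene carries no information on which part of MMS21 was read and is no check of the genotype.

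Of the 10 members, 5 rose (SSA1, SSA3, SSA4, SSE1 and SSE2), 3 fell (SSB1, SSB2 and SSZ1) and 2 were not called (SSA2 and ZUO1). Values were tested as log2(RPKM + 1) with limma, and a Benjamini-Hochberg adjusted p under 0.05 over the 6731 features that averaged 1 RPKM or more was a call. All 10 members passed that filter. Of all features tested, 42.7% were called higher and 10.9% lower, so the number of members that rose is near the background. In size some members stood further out: 3 of 10 rose at least 5-fold in mean RPKM (SSA3, SSA4 and SSE2), against 1.75% of all features, and 4 rose at least 2-fold (SSA1 as well), against 10.3%. The members were chosen with earlier results of these data known, so these shares only describe them. The groups did not overlap in 5 members that were higher and 4 that were lower, against 50.1% and 14.3% of all features. Over all features the log2 fold change had a median of 0.24, and of 0.00 after median-of-ratios scaling of the libraries, so a change near 0.24 is that of the typical feature. Under that scaling 4 members were higher and 5 lower, against 25.4% and 27.1% of all features. Under quantile normalization the counts were 5 and 3, against 20.3% and 34.6%, and without WT replicate 1 they were 5 and 3, against 57.3% and 15.3%. In bulk RNA a change in some of the cells and a change in every cell cannot be told apart.

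**Figure D1:**
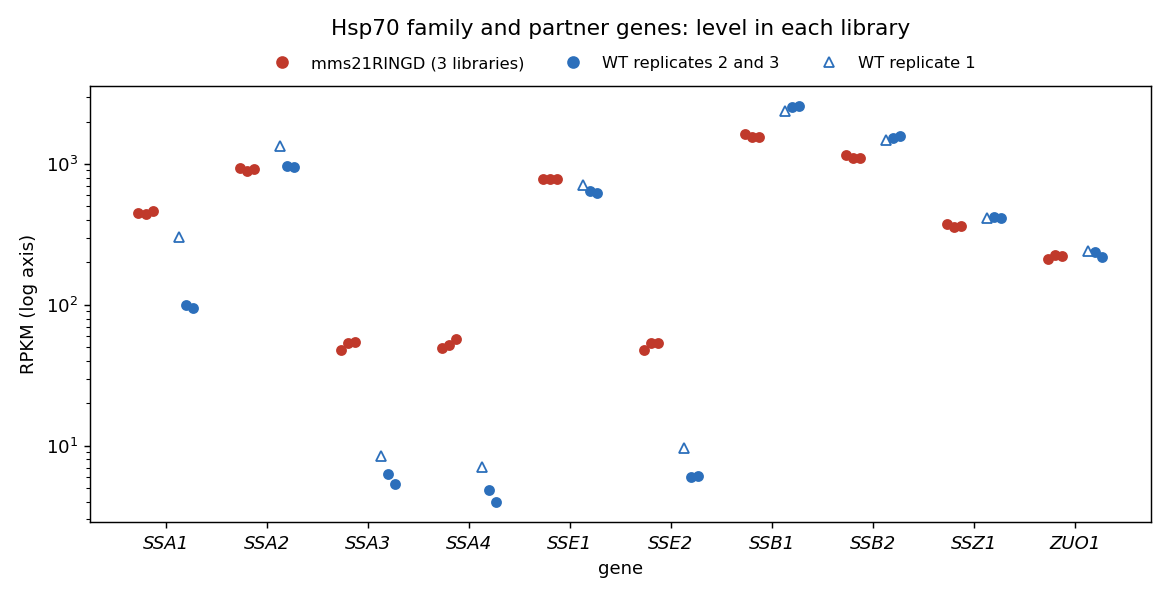
RPKM (log axis) of each of the 10 genes in each library, with the 3 mms21RINGD libraries left of the 3 WT libraries and WT replicate 1 as an open triangle. SSA3, SSA4 and SSE2 lay at 47.9 to 57.2 RPKM in mms21RINGD and at 3.96 to 9.62 RPKM in WT, while SSB1 and SSB2 were lower in all 3 mms21RINGD libraries.

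Among the stress-inducible SSA genes, both rose by a large factor. SSA4 (YER103W, chrV:364589-366517) measured 49.1, 52.1 and 57.2 RPKM in mms21RINGD, against 7.05, 4.86 and 3.96 RPKM in WT. The lowest mutant library was several times the highest WT library, and WT replicate 1 was the highest of the WT libraries. The mean was 9.98-fold higher in mms21RINGD (log2 fold change 3.12 ± 0.18 SE, limma adjusted p = 5.94e-05), and 11.96-fold higher without WT replicate 1. SSA3 (YBL075C, chrII:84499-86448) measured 47.9, 53.8 and 54.1 RPKM in mms21RINGD, against 8.39, 6.26 and 5.34 RPKM in WT. The order of the WT libraries was the same as in SSA4. The mean of SSA3 was 7.80-fold higher in mms21RINGD (log2 fold change 2.81 ± 0.15 SE, limma adjusted p = 5.2e-05), and 8.96-fold higher without WT replicate 1. The WT libraries held 166 to 335 reads of SSA4, with exact 95% Poisson intervals between 142 and 373, and the mutant libraries held 1825 to 2416 reads, so counting error was small beside the difference.

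SSA4 and SSA3 were also set against each other. Within a library the log2 ratio of SSA4 to SSA3, taken on RPKM + 1, was 0.04, -0.05 and 0.08 in mms21RINGD, against -0.22, -0.31 and -0.35 in WT. The level of SSA4 was thus about that of SSA3 in the mutant and below it in every WT library. The difference of the means was 0.32 on the log2 scale, and 0.36 and 0.20 with 0.1 and 5 RPKM added in place of 1. An exact two-sided permutation test gave p = 0.1, the smallest p that 3 libraries against 3 allow, and 0.117 after adjustment over the 7 ratios tested.

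SSA1 and SSA2, whose proteins make up most of the SSA pool in growing cells, had different test results. SSA1 (YAL005C, chrI:139503-141431) measured 446, 443 and 462 RPKM in mms21RINGD, against 301, 100.5 and 94.9 RPKM in WT. The groups did not overlap, but WT replicate 1 held about 3 times the level of the other WT libraries. The mean of SSA1 was 2.72-fold higher in mms21RINGD (log2 fold change 1.65 ± 0.42 SE, limma adjusted p = 0.0172), and 4.61-fold higher without WT replicate 1 (adjusted p = 4.72e-07). Without any single other library the SSA1 call was lost, with adjusted p between 0.051 and 0.0583 and log2 fold changes between 1.37 and 1.67. SSA2 (YLL024C, chrXII:95566-97485) measured 940, 897 and 922 RPKM in mms21RINGD, against 1343, 969 and 958 RPKM in WT. Every mutant library lay below every WT library, by a narrow margin except for WT replicate 1. The log2 fold change of SSA2 was -0.23 ± 0.13 SE (95% interval -0.54 to 0.08, limma adjusted p = 0.177), and -0.07 without WT replicate 1 (adjusted p = 0.0848). After median-of-ratios scaling SSA2 was called lower (-0.48), and with quantile normalization it was not called (-0.0051). Quantile normalization and leaving out WT replicate 1, both together, gave a call higher (0.17).

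The groups did not overlap in the ratio of SSA2 to SSA1. Its log2 value was 1.07, 1.02 and 1.00 in mms21RINGD, against 2.15, 3.26 and 3.32 in WT, a difference of -1.88 (exact permutation p = 0.1, adjusted 0.117) and of -2.26 without WT replicate 1. SSA2 thus stood at about 2 times SSA1 in each mutant library, and WT replicate 1 lay between the mutant libraries and the other WT libraries. The log2 ratio of SSA4 to SSA1 was -3.16, -3.06 and -2.99 in mms21RINGD, against -5.23, -4.11 and -4.27 in WT, a difference of 1.47 (exact permutation p = 0.1, adjusted 0.117) and of 1.12 without WT replicate 1.

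**Figure D2:**
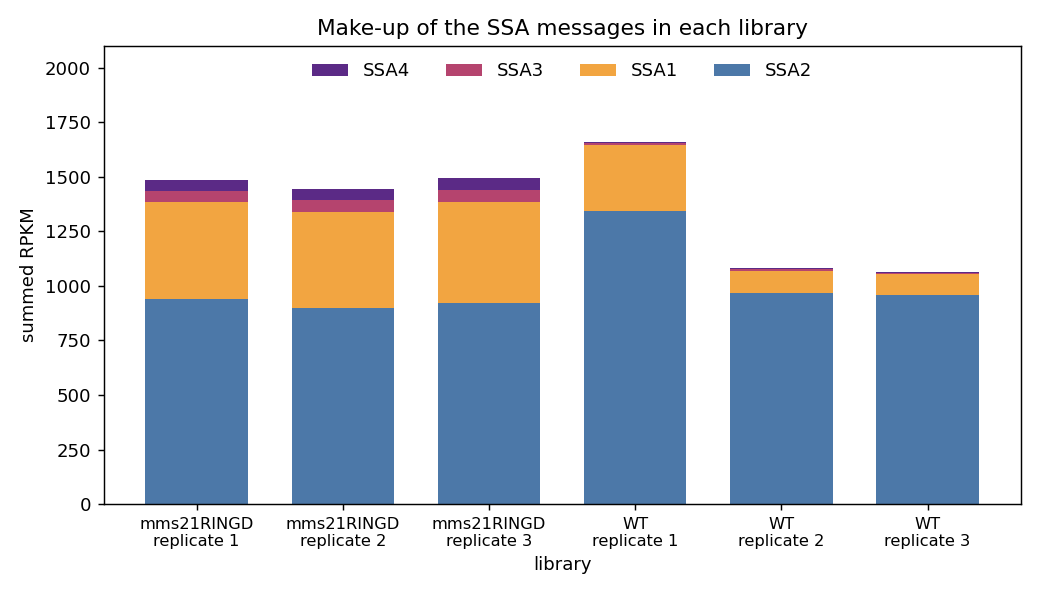
Summed RPKM of the SSA genes in each library, stacked by gene from SSA2 at the bottom to SSA4 at the top, with mms21RINGD libraries left of WT libraries. SSA1 made up 30.1% to 30.9% of the sum in mms21RINGD and 8.94% to 18.2% in WT, and SSA3 and SSA4 are visible as separate bands in the mutant bars.

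The make-up of the SSA messages was compared as shares of their sum. SSA1 and SSA2 share sequence, as described below, so these shares also depend on how shared reads were counted. SSA1 supplied 30.1%, 30.6% and 30.9% of the summed SSA RPKM in mms21RINGD, against 18.2%, 9.30% and 8.94% in WT. SSA2 supplied 63.4%, 62.0% and 61.7% in mms21RINGD, against 80.9%, 89.7% and 90.2% in WT. SSA3 and SSA4 together supplied 7.10% ± 0.49 in mms21RINGD and 0.95% ± 0.08 in WT (SD, n = 3 each; exact permutation p = 0.1). In that share WT replicate 1, at 0.93%, lay between the other WT libraries, at 1.03% and 0.88%. The summed SSA level itself was 1484, 1446 and 1495 RPKM in mms21RINGD, against 1660, 1080 and 1062 RPKM in WT, so the groups overlapped through WT replicate 1.

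Part of the sequence of SSA1 and SSA2, and of SSB1 and SSB2, is the same. The coding sequences of SSA1 and SSA2 were 96.4% identical with a longest identical run of 383 bases, and those of SSB1 and SSB2 were 97.4% identical with a run of 563 bases. Of the 50-base windows of SSA1, 57.9% also occurred elsewhere in the genome, as did 43.2% of those of SSB1 and of SSB2, and 58.2% of those of SSA2. None of the windows of the other 6 members did. How the authors counted reads with several equal positions is not stated in the sources used, and the split within each pair is uncertain. The sum within a pair does not depend on that split, provided that each shared read entered it as a single read. Dropping such reads would lower the sum, and counting them at each position would raise it. The levels of these genes relative to other members would then shift as well. SSA1 plus SSA2 measured 1387, 1340 and 1383 RPKM in mms21RINGD, against 1644, 1069 and 1053 RPKM in WT. The mutant libraries lay between WT replicate 1 and the other WT libraries, and the sum was not called (log2 fold change 0.16 ± 0.17 SE, 95% interval -0.24 to 0.56, limma adjusted p = 0.45). Without WT replicate 1 the sum was called higher (0.37, limma adjusted p = 6.13e-05), and after median-of-ratios scaling it was -0.10 and not called.

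A pair of features may lie on the strand opposite SSA1 and SSB1. The table lists YAL004W and YDL228C, both without an entry in the RefSeq annotation, and their values were seen before they were picked. The longest open frame opposite SSA1 has 648 bases and that opposite SSB1 has 642 bases, and at these lengths the RPKM of YAL004W and of YDL228C gave whole read numbers in 6 of 6 libraries. YAL004W measured 509, 485 and 512 RPKM in mms21RINGD, against 331, 123 and 114 RPKM in WT, which is 1.10 to 1.14 times SSA1 in mms21RINGD and 1.10 to 1.22 times SSA1 in WT. YDL228C measured 1.29 times SSB1 in each mutant library and 1.25 to 1.29 times SSB1 in WT. These lengths are the only evidence here of where the features lie, and reads of a gene and of the strand opposite it cannot be told apart in these values.

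The Hsp110 genes are a constitutive and a stress-induced form, and both were called higher. SSE2 (YBR169C, chrII:573915-575996) measured 48.2, 53.5 and 53.9 RPKM in mms21RINGD, against 9.62, 5.98 and 6.06 RPKM in WT. Its levels in the mutant lay within a few RPKM of SSA3 and SSA4, and WT replicate 1 was again the highest WT library. The mean of SSE2 was 7.19-fold higher in mms21RINGD (log2 fold change 2.71 ± 0.17 SE, limma adjusted p = 8.49e-05), and 8.62-fold higher without WT replicate 1. SSE1 (YPL106C, chrXVI:350194-352275) measured 780, 780 and 780 RPKM in mms21RINGD, against 711, 638 and 621 RPKM in WT. The groups did not overlap, and SSE1 was called higher (log2 fold change 0.25 ± 0.06 SE, limma adjusted p = 0.0126). The call was lost without WT replicate 2 (0.23, limma adjusted p = 0.0504). The change lay 0.01 above the median of all features, and after median-of-ratios scaling the log2 fold change was -0.01 and not called, while with quantile normalization it was 0.43 and called. The log2 ratio of SSE2 to SSE1 was -3.99, -3.84 and -3.83 in mms21RINGD, against -6.07, -6.52 and -6.46 in WT, a difference of 2.46 (exact permutation p = 0.1, adjusted 0.117).

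The ribosome-bound Hsp70 genes were the most abundant members and both fell. SSB1 (YDL229W, chrIV:44065-45906) measured 1637, 1547 and 1561 RPKM in mms21RINGD, against 2361, 2547 and 2601 RPKM in WT. Every mutant library was well below every WT library. The mean of SSB1 in mms21RINGD was 0.632 times that in WT (log2 fold change -0.66 ± 0.05 SE, limma adjusted p = 0.000136), and 0.615 times without WT replicate 1. SSB2 (YNL209W, chrXIV:252059-253900) measured 1157, 1100 and 1098 RPKM in mms21RINGD, against 1472, 1540 and 1577 RPKM in WT. SSB2 again had no overlap between the groups. Its mean in mms21RINGD was 0.731 times that in WT (log2 fold change -0.45 ± 0.04 SE, limma adjusted p = 0.00041), and 0.717 times without WT replicate 1. Summed, the SSB genes measured 2794, 2647 and 2658 RPKM in mms21RINGD, against 3833, 4087 and 4178 RPKM in WT (log2 fold change -0.58 ± 0.04 SE, limma adjusted p = 0.000152). Both calls held after median-of-ratios scaling (-0.92 for SSB1 and -0.71 for SSB2) and with quantile normalization (-0.42 and -0.23).

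SSB1 and SSB2 were also set against each other. The log2 ratio of SSB2 to SSB1 was -0.50, -0.49 and -0.51 in mms21RINGD, against -0.68, -0.73 and -0.72 in WT. The ratio varied little within each group, with an SD of 0.0076 in mms21RINGD and 0.0246 in WT, and the difference of the means was 0.21 (exact permutation p = 0.1, adjusted 0.117). Because the copies share sequence, this ratio also depends on how shared reads were assigned.

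The partners in the ribosome-associated complex changed less. SSZ1 (YHR064C, chrVIII:225525-227141) measured 375, 359 and 363 RPKM in mms21RINGD, against 411, 421 and 414 RPKM in WT. The groups were close but did not overlap, and SSZ1 fell (log2 fold change -0.18 ± 0.04 SE, limma adjusted p = 0.0136). That call was lost without WT replicate 2 or mms21RINGD replicate 2 or 3, with adjusted p between 0.057 and 0.0669. Without WT replicate 1 it was -0.19 and called. ZUO1 (YGR285C, chrVII:1061852-1063153) measured 210, 227 and 221 RPKM in mms21RINGD, against 242, 236 and 217 RPKM in WT. The groups overlapped, and ZUO1 was not called (log2 fold change -0.08 ± 0.06 SE, 95% interval -0.23 to 0.07, limma adjusted p = 0.324; -0.05 without WT replicate 1). After median-of-ratios scaling, where the typical feature stays level, ZUO1 was called lower (-0.33) and SSZ1 lay at -0.44.

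**Figure D3:**
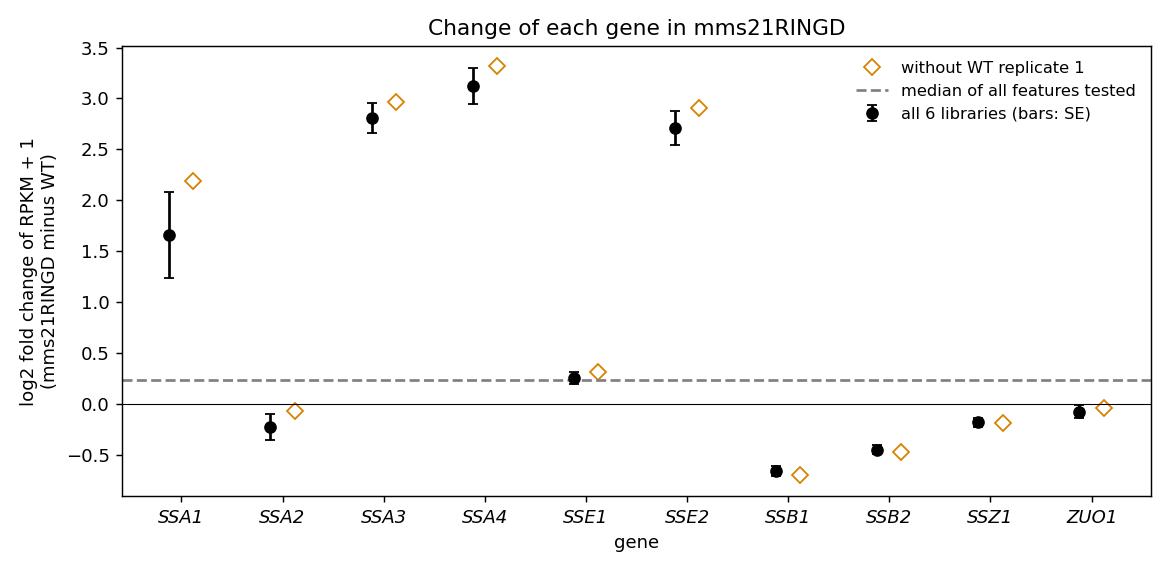
Log2 fold change of RPKM + 1 (mms21RINGD minus WT) of each gene from all 6 libraries (filled points, bars are standard errors) and without WT replicate 1 (open diamonds). The dashed line is the median of all features tested, 0.24; SSE1 lies on it, SSA1, SSA3, SSA4 and SSE2 lie above it and the other members below it.

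Levels within the ribosome-bound system were compared as ratios. Those that hold summed SSB or summed SSA also depend on how reads shared within a pair were counted. The log2 ratio of summed SSB to SSZ1 was 2.89, 2.88 and 2.87 in mms21RINGD, against 3.22, 3.27 and 3.33 in WT, a difference of -0.39 (exact permutation p = 0.1, adjusted 0.117). For ZUO1 over SSZ1 the groups overlapped, at -0.83, -0.66 and -0.72 in mms21RINGD, against -0.76, -0.83 and -0.93 in WT (exact permutation p = 0.2, adjusted 0.2). The ratio of summed SSB to summed SSA RPKM was 1.88, 1.83 and 1.78 in mms21RINGD, against 2.31, 3.78 and 3.93 in WT (exact permutation p = 0.1). WT replicate 1 lay between the mutant libraries and the other WT libraries in that ratio.

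**Figure D4:**
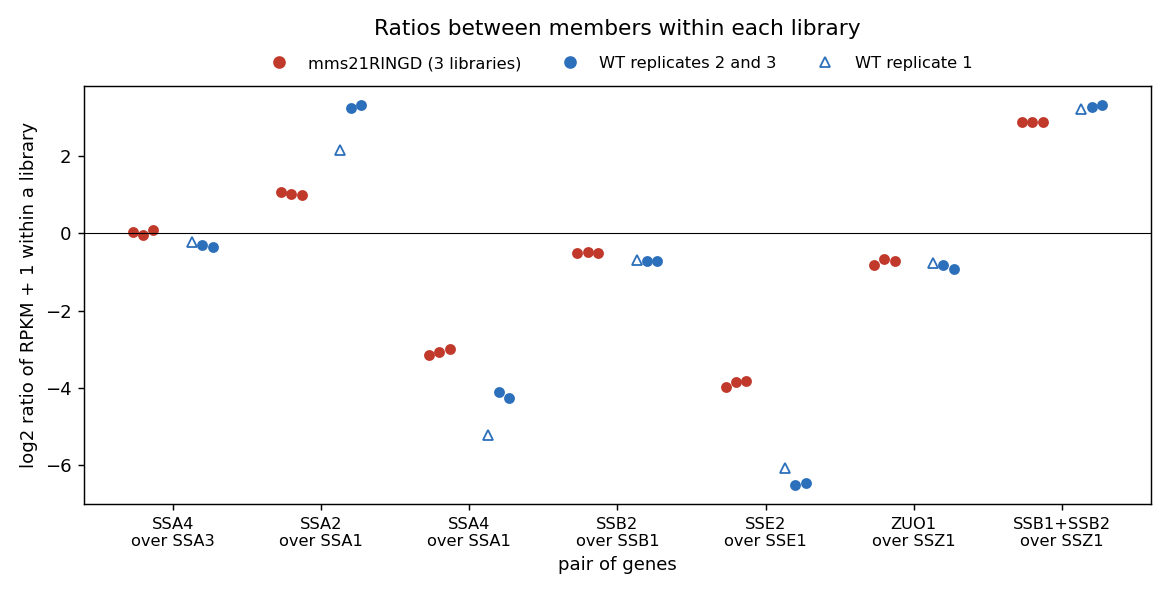
Log2 ratio of RPKM + 1 between members within each library, with mms21RINGD libraries left of WT libraries and WT replicate 1 as an open triangle. The groups overlapped in ZUO1 over SSZ1 and did not overlap in the other 6 ratios.

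The order of the levels, compared per length as RPKM, was nearly the same in both groups. In mms21RINGD it ran from SSB1, SSB2, SSA2, SSE1, SSA1, SSZ1 and ZUO1 down to SSA4, SSA3 and SSE2, and the ranges of the last 3 genes overlapped. In WT it ran SSB1, SSB2, SSA2, SSE1, SSZ1, ZUO1, SSA1, SSE2, SSA3 and SSA4, and the ranges of ZUO1 and SSA1 and of the last 3 genes overlapped. Without WT replicate 1, SSA1 lay below ZUO1 with no overlap, at 94.9 and 100.5 RPKM, against 217 and 236 RPKM for ZUO1. By mean level SSA1 thus ranked above both SSZ1 and ZUO1 in mms21RINGD and below both in WT. In WT replicate 1 itself, SSA1 lay above ZUO1, at 301 against 242 RPKM. The rank of SSA1 also depends on how reads shared with SSA2 were counted.

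The other parts of the Hsp70 network changed less than the stress-induced members. Of 14 listed J-proteins and exchange factors, most of them cytosolic, 13 were tested. Of those tested, 5 rose and none fell, with a median log2 fold change of 0.21 beside 0.24 for all features, of which 42.7% were called higher and 10.9% lower. Under median-of-ratios scaling 1 of the 13 was higher and 1 lower, against 25.4% and 27.1% of all features. Under quantile normalization 0 were higher and 5 lower, against 20.3% and 34.6%. Without WT replicate 1, 8 were higher and 0 lower, against 57.3% and 15.3%. Their median in that fit was 0.23, beside 0.29 for all features. The risers were XDJ1 (0.42 ± 0.10 SE), CAJ1 (0.29 ± 0.07), DJP1 (0.39 ± 0.08), JJJ1 (0.30 ± 0.10) and CWC23 (0.57 ± 0.15), and only XDJ1 was still called after median-of-ratios scaling. CWC23 was low, at a mean of 3.81 RPKM in mms21RINGD and 2.23 RPKM in WT. None of the 5 was called with quantile normalization. DJP1 held its call without any single library. XDJ1 and CAJ1 lost theirs without mms21RINGD replicate 2 or 3, and XDJ1 also without WT replicate 2. JJJ1 was not called without WT replicate 2 or any 1 mutant library, and CWC23 was not called without WT replicate 3 or mms21RINGD replicate 1 or 3. The main SSA partner YDJ1 measured 268 ± 11.0 RPKM in mms21RINGD and 249 ± 37.1 RPKM in WT (SD, n = 3 each, limma adjusted p = 0.387). YDJ1 was called higher without WT replicate 1 (log2 fold change 0.23), but lay below the median of 0.29 for all features in that fit. SIS1, a J-protein gene under Hsf1, measured 115 ± 2.22 RPKM in mms21RINGD and 81.2 ± 24.6 RPKM in WT (SD, n = 3 each; limma adjusted p = 0.0551), with WT replicate 1 at 109 RPKM and the other WT libraries at 61.0 and 74.0 RPKM. Without WT replicate 1 its log2 fold change was 0.76, against 0.53 with it, and SIS1 was called higher. FES1, a cytosolic exchange factor, measured 60.9 ± 0.205 RPKM in mms21RINGD and 59.9 ± 2.69 RPKM in WT (limma adjusted p = 0.738). SNL1, an exchange factor in the membrane of the endoplasmic reticulum, was below the filter and was not tested.

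The 16 genes of the Hsp70 systems in the endoplasmic reticulum and mitochondria were all tested. With all 6 libraries 5 rose and 1 fell, against 42.7% and 10.9% of all features. Their median log2 fold change was 0.19, beside 0.24 for all features. Under median-of-ratios scaling 2 were higher and 4 lower, against 25.4% and 27.1% of all features. Under quantile normalization the counts were 3 and 5, against 20.3% and 34.6%. Without WT replicate 1, 11 were higher and 2 lower, against 57.3% and 15.3%, with a median of 0.36 beside 0.29 for all features. The genes that rose with all 6 libraries were MDJ1, a mitochondrial J-protein (1.00 ± 0.23 SE), SSQ1, the Hsp70 of iron-sulfur cluster assembly (0.77 ± 0.10), its J-protein JAC1 (0.40 ± 0.13), SSC1, the Hsp70 of import and folding (0.51 ± 0.14), and ZIM17, which keeps SSC1 soluble (0.59 ± 0.20). PAM18, a J-protein of the import motor, fell (-0.27 ± 0.09). The genes called higher only without WT replicate 1 were KAR2 (0.41), SIL1 (0.29), SCJ1 (0.57), JEM1 (0.50) and ERJ5 (0.31), all of the endoplasmic reticulum, and ECM10 (0.30), a mitochondrial Hsp70. Of these, SIL1, ERJ5 and ECM10 lay near the median of 0.29 that all features had in that fit, and a difference from that median was not tested. With all 6 libraries, none of these endoplasmic reticulum genes nor ECM10 was called under median-of-ratios scaling. Under quantile normalization only ECM10 was called among them, as lower (-0.35). MDJ1 and SSQ1 held their calls without any single library. JAC1 and PAM18 were not called without WT replicate 2 or any 1 mutant library, and JAC1 was not called under either scaling. Under median-of-ratios scaling neither SSC1 nor ZIM17 was called, and SSC1 and ZIM17 were called in none of the fits without 1 library other than WT replicate 1. KAR2, the Hsp70 of the endoplasmic reticulum, measured 577 ± 9.34 RPKM in mms21RINGD and 555 ± 211 RPKM in WT (SD, n = 3 each; limma adjusted p = 0.686), with WT replicate 1 at 799 RPKM and the other WT libraries at 439 and 428 RPKM.

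**Figure D5:**
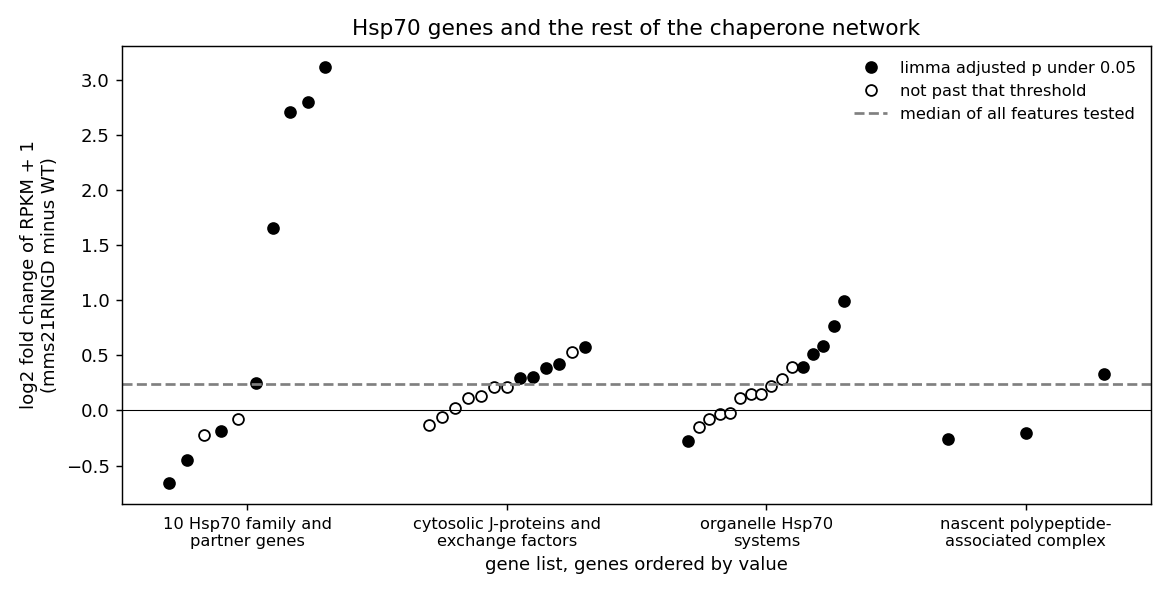
Log2 fold change of RPKM + 1 (mms21RINGD minus WT) for the 10 members and for the genes of 3 lists, ordered by value within each list, with filled points for genes past the limma threshold. The dashed line is the median of all features, 0.24; none of the listed genes outside the members exceeded the 1.00 of MDJ1.

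Of the 3 genes of the nascent polypeptide-associated complex, which also meets the nascent chain, 2 fell and 1 rose. Among all features, 10.9% were called lower and 42.7% higher. EGD1 and EGD2, its main subunits, measured 812 ± 25.7 and 660 ± 28.1 RPKM in mms21RINGD, against 972 ± 8.51 and 760 ± 26.0 RPKM in WT (SD, n = 3 each). Both fell (log2 fold changes -0.26 ± 0.04 and -0.20 ± 0.05 SE, limma adjusted p = 0.00278 and 0.016), though neither was called with quantile normalization, and EGD2 was not called without WT replicate 2, WT replicate 3 or mms21RINGD replicate 1. BTT1, a minor subunit, rose (0.33 ± 0.12 SE, limma adjusted p = 0.049), a call that was lost after median-of-ratios scaling, with quantile normalization and without any single library other than WT replicate 1. For comparison, of 137 cytosolic ribosomal protein genes 129 were lower and 1 was higher by the same test. Their median log2 fold change was -0.52, which lies between SSB1 (-0.66) and SSB2 (-0.45). HSF1 itself measured 14.3 ± 0.741 RPKM in mms21RINGD and 11.05 ± 2.36 RPKM in WT (SD, n = 3 each; limma adjusted p = 0.0632), with overlapping groups. It was called higher without WT replicate 1 (0.52, beside a median of 0.29 for all features in that fit), but without no other single library. Under median-of-ratios scaling (0.13) and quantile normalization (-0.05) it was not called.

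Genes with the most similar pattern over the 6 libraries were named by the distance between their deviations from their own mean log2(RPKM + 1) and those of the members. Candidates were 4347 genes outside the members with a mean of at least 10 RPKM, a RefSeq match and a symbol other than the systematic name. To the mean profile of SSA3 and SSA4, which each lay 0.20 from it, the nearest were DCS2 (distance 0.31), GPG1 (0.33), TFS1 (0.35), YGP1 (0.35) and HBT1 (0.39). Their log2 fold changes ran from 2.77 for HBT1 to 3.16 for YGP1. Genes picked by distance to a profile share its change, so the fold changes given here and for the next profile are no separate result. DCS2, GPG1, TFS1 and HBT1 averaged 3.55 to 8.70 RPKM in WT and passed the 10 RPKM filter through their mutant levels. To the mean profile of SSB1, SSB2, SSZ1 and ZUO1 the nearest were PMA1, the plasma membrane proton pump (distance 0.04), ALA1, PUS9, SUB2 and CYS4 (0.05 to 0.06), with log2 fold changes from -0.36 for PMA1 to -0.33 for ALA1. The 4 members lay further from their own mean profile than these genes did, from 0.15 for SSB2 to 0.40 for SSB1.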

How the data were processed

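RNA of 6 libraries was measured, 3 of mms21RINGD and 3 of WT, and columns were assigned to samples by title. The authors deposited 1 table of RPKM values for 7126 features. Per the submitters' processing notes, the tools named are edgeR 3.8.6, TopHat2 2.0.8 and CASAVA 1.8.2 and the build is sacCer3, with no role stated. The read counter, the strand setting and the handling of reads with several positions: not given in the sources used here. RPKM scaling makes a gene's level depend on all others in the library.

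Names and positions came from the RefSeq annotation of R64, where 6048 features were found by systematic name and a further 114 by symbol. Library totals and read numbers were recovered from the RPKM values, gene lengths and the value of 1 read per library, with a tolerance of 0.02 reads. Poisson intervals cover counting error only.

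limma 3.58.1 (R 4.3.3) was run on log2(RPKM + 1) of the features averaging 1 RPKM or more, with a variance trend and no covariate, two-sided, with Benjamini-Hochberg adjustment over all features. The log2 fold change, mms21RINGD minus WT on that scale, understates the change of low genes. Ratios within a library were tested with an exact two-sided permutation test, which with 3 libraries against 3 cannot go below p = 0.1. SSA1 with SSA2, and SSB1 with SSB2, were also fitted as sums.

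The members and lists were chosen with earlier results of these data known. The genes named are the 10 members, MMS21, HSF1, any member of the other lists that hold 16 or fewer genes, and the 5 genes nearest to each of 2 mean profiles. Alternatives were other pseudocounts, filters and scalings, limma without a trend, voom weights on the recovered reads, a block for the replicate number, and omission of each library in turn. Scaling combined with leaving out WT replicate 1 was added after the data were seen.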

Additional observations from a re-analysis of the deposited data

How the results depend on the processing

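The directions of SSA1, SSA3, SSA4, SSE2, SSB1, SSB2, SSZ1 and ZUO1 and of summed SSB held in every alternative fitted. Leaving out 1 library gave 3 to 5 members higher and 2 to 3 lower, and log2 fold changes of 1.37 to 2.19 for SSA1, 0.21 to 0.31 for SSE1 (call lost without WT replicate 2), -0.20 to -0.17 for SSZ1 and 0.047 to 0.37 for SSA1 plus SSA2 (called at 0.37 without WT replicate 1). With median-of-ratios scaling 5 members were lower: SSA2 (-0.48) and ZUO1 (-0.33) joined, while SSE1 (-0.0052) and SSA1 plus SSA2 (-0.10) changed sign and were not called. Median-of-ratios scaling without WT replicate 1 gave 5 lower members, with SSA2 at -0.38, ZUO1 at -0.36 and SSE1 at -0.0053. Quantile normalization without WT replicate 1 gave 0.17 for SSA2 and 0.59 for SSA1 plus SSA2, both called higher. Over all features, 2875 were higher and 732 lower as deposited, 1713 and 1821 under median-of-ratios scaling, and 1369 and 2330 under quantile normalization; the cause was not tested.

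The replicate number as a block ended the call of SSZ1 (-0.18, limma adjusted p = 0.0587) and no other member's call. Same-numbered libraries of the groups did not deviate together (correlations -0.14, 0.05 and -0.10), so the numbers were not taken as pairs. With a pseudocount of 5 RPKM the difference in log2 ratio was 0.20 for SSA4 over SSA3, 0.88 for SSA4 over SSA1 (1.47 with 1 RPKM) and 1.98 for SSE2 over SSE1. With quantile normalization it was 0.19 for SSB2 over SSB1, 1.90 for SSE2 over SSE1 and -0.18 for summed SSB over SSZ1, and the SSA3 and SSA4 share differed by 4.92 percentage points in place of 6.16. Below about 10 RPKM, as for SSA3, SSA4 and SSE2 in WT, the pseudocount lowers the fold change.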

Other observations

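WT replicate 1 was compared with the other libraries over the chaperone genes outside the 10 members. Of 32 tested genes in the lists of J-proteins and exchange factors, organelle Hsp70 systems and nascent polypeptide-associated complex, it lay above both other WT libraries in 23 (71.9%), against 64.7% of all features. In the organelle list this held for 15 of 16 genes, among J-proteins and exchange factors for 7 of 13, and in the nascent polypeptide-associated complex for 1 of 3. It lay above all 3 mms21RINGD libraries in 8 of the 16 organelle genes, 2 of the 13 J-proteins and exchange factors and 2 of the 3 genes of the complex, against 26.7% of all features. KAR2, the Hsp70 of the endoplasmic reticulum, lay above them, at 799 RPKM, with 567 to 585 RPKM in mms21RINGD. Among the members, WT replicate 1 lay above all other libraries in SSA2, at 1343 RPKM with 897 to 940 RPKM in mms21RINGD, and in ZUO1, at 242 RPKM with 210 to 227 RPKM in mms21RINGD. SSA3, SSA4 and SSE2 in that library, at 8.39, 7.05 and 9.62 RPKM, remained far below the mutant.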
